A study of Mus musculus with 6 samples.

Results

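The NRF2 antioxidant genes described here are 10 genes of the oxidant defence pathway: the transcription factor gene Nfe2l2, its inhibitor Keap1, and the target genes Nqo1, Gclc, Gclm, Srxn1, Txnrd1, Slc7a11, Gsr and Prdx1. They were selected by symbol, as well-known members of the pathway; the selection rule uses no measured value, but it was set with earlier results of these data known. All 10 symbols were found among the 28802 genes of the table, and all 10 passed the filter on low counts. Messenger RNA labelled as from Mus musculus cranial bone was sequenced in 6 libraries. The metformin scaffold group holds 3 libraries labelled as treated with the Met/alpha-CSH/nHA scaffold at 500 µM, where metformin, a biguanide glucose-lowering drug, is carried by a mineral composite used as a bone filler. The control group holds 3 libraries labelled 0 µM. The labels name a cranial defect of 5 mm in diameter as the model. The sources used here give no strain, sex or age. They do not settle whether the RNA came from defect tissue or from cultured cells. Nor do they say whether the controls received the composite without the drug, or whether the replicates came from separate animals or cultures. The p-values and intervals below therefore set the group difference only against the spread between these libraries. That spread may be technical, so they may not carry over to other animals or cultures.

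Total estimated counts ran between 63174927 and 70955139 per library, at an inferred 1 read pair for about every 4 counts. All 8 osteoblast markers were at a mean of 1 FPKM or more (FPKM is the authors' level per gene length and library size), while 0 of 4 endothelial and 0 of 3 red cell markers reached that level. In any library, Pecam1 of the endothelial list was at most 0.1137 FPKM and Hbb-bs of the red cell list at most 0.3146 FPKM. Whether the RNA came from tissue or from cultured cells was not tested. The 5 osteocyte markers summed to 17.66 to 20.78 FPKM in scaffold libraries and 8.19 to 9.58 FPKM in control libraries. Of these, Mepe averaged 14.2 FPKM in scaffold and 7.28 FPKM in control, Dmp1 4.233 and 0.9993 FPKM, and Phex 0.8507 and 0.4504 FPKM. Sost and Fgf23 were near 0 in both groups. Summed osteoblast markers were 6966 to 7085 FPKM in scaffold libraries and 5837 to 6657 FPKM in control libraries. Most of that gap was Ibsp, which averaged 2116 FPKM in scaffold and 1266 FPKM in control. Bglap averaged 20.23 FPKM in scaffold and 5.483 FPKM in control, Alpl 7.48 and 5.17 FPKM, and Sp7 40.43 and 35.1 FPKM. Col1a1 averaged 2163 FPKM in scaffold and 2173 FPKM in control, Col1a2 1541 and 1532 FPKM, and Spp1 1106 and 1066 FPKM. Runx2 was lower in scaffold, at 24.98 FPKM against 28.98 FPKM in control. The 3 chondrocyte markers summed to 80.07 to 80.88 FPKM in scaffold and 56.34 to 62.22 FPKM in control. That gap was Col2a1, which averaged 56.36 FPKM in scaffold and 31.8 FPKM in control. Sox9 went the other way, at 24.14 FPKM in scaffold and 27.08 FPKM in control, and Acan was near 0 in both. The 4 osteoclast markers summed to 118.6 to 128.7 FPKM in scaffold and 100.3 to 111.7 FPKM in control, nearly all of it Ctsk. The part of these marker differences in the results below was not tested. The 6 leukocyte and macrophage markers summed to 8.56 to 10.5 FPKM in scaffold libraries and 7.53 to 11.2 FPKM in control libraries, nearly all of it Lyz2.

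NRF2, the protein of Nfe2l2, is a transcription factor that is made continuously and destroyed continuously. KEAP1 holds it in the cytoplasm and presents it to a CUL3 ubiquitin ligase. When oxidants or electrophiles modify cysteines of KEAP1, NRF2 escapes, enters the nucleus, pairs with a small MAF protein and binds the antioxidant response element in target genes. Because this control acts on the protein, the level of Nfe2l2 mRNA by itself does not report NRF2 activity, and the mRNAs of its targets are the usual readout. Those targets make and recycle glutathione and thioredoxin, reduce quinones and import cystine. Metformin is known to act on mitochondrial respiration and on AMPK.

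The antioxidant response element is the DNA element through which NRF2 reaches these genes, so the copies of its core that lie next to the members' start sites are shown. The core TGACNNNGC was searched on both strands of the RefSeq promoter windows (GRCm38.p6), which run from 250 bases before to 50 bases after a start site. Of the 10 genes, 8 matched that table by symbol, with 10 windows, and Gclc and Gsr have no entry. The core lay in 5 of the 10 windows, belonging to 5 of the 8 genes, against 12.4% of all 32851 windows and 14.0% of all 27025 genes in the table. Each is printed 5′ to 3′ on the strand where it reads as the core, with the core in capitals and 10 bases on either side.
Nfe2l2: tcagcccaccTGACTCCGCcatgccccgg
Gclm: tcgtgagagtTGACGGTGCgcccgggagc
Prdx1: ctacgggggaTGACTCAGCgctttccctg
Txnrd1: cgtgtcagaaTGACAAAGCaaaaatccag
Srxn1: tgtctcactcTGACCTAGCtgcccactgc
The Nfe2l2 copy (chr2:75704885-75704913, minus strand) began 240 bases before the start site, counted to the end of the core farthest upstream. The Gclm copy (chr3:122245413-122245441, minus strand) began 134 bases before it, the Prdx1 copy (chr4:116685456-116685484, minus strand) 133 bases before it, and the Txnrd1 copy (chr10:82859104-82859132, minus strand) 92 bases before the second of the 3 listed start sites. The Srxn1 copy (chr2:152105542-152105570, minus strand) began 28 bases after the start. The core can overlap the AP-1 motif TGACTCA, and of the 5 copies the Prdx1 copy does. The windows of Nqo1, Keap1 and Slc7a11 did not hold these letters, which says nothing of elements farther away. A match is a description of the sequence, not a measured binding site.

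None of the NRF2 antioxidant genes passed the test between the metformin scaffold and control libraries. Of the 10 genes, 0 were called by the edgeR quasi-likelihood test in either direction at a Benjamini-Hochberg adjusted p under 0.05, and adjusted p ranged from 0.336 for Gsr to 0.960 for Txnrd1. Over all 17375 genes tested, 4.31% passed, 2.85% as higher and 1.46% as lower. Unadjusted p was under 0.05 for 0 of the 10 genes, against 18.1% of all genes tested. DESeq2 and limma also called 0 of them, with 0 at an unadjusted p under 0.05. The log2 fold changes of scaffold over control were above 0 for 5 genes and below 0 for 5, with a median of 0.0083, against a median of -0.0045 over all genes tested. The median size of the log2 fold change, whatever its sign, was 0.05 for the 10 genes and 0.10 for the 11814 tested genes with a mean of at least 1 FPKM. These sets were not matched for level or precision. The median standard error was 0.063 for the 10 genes and 0.077 for the larger set. In bulk RNA, fewer cells of a type and less RNA per cell cannot be told apart.

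**Figure D1:**
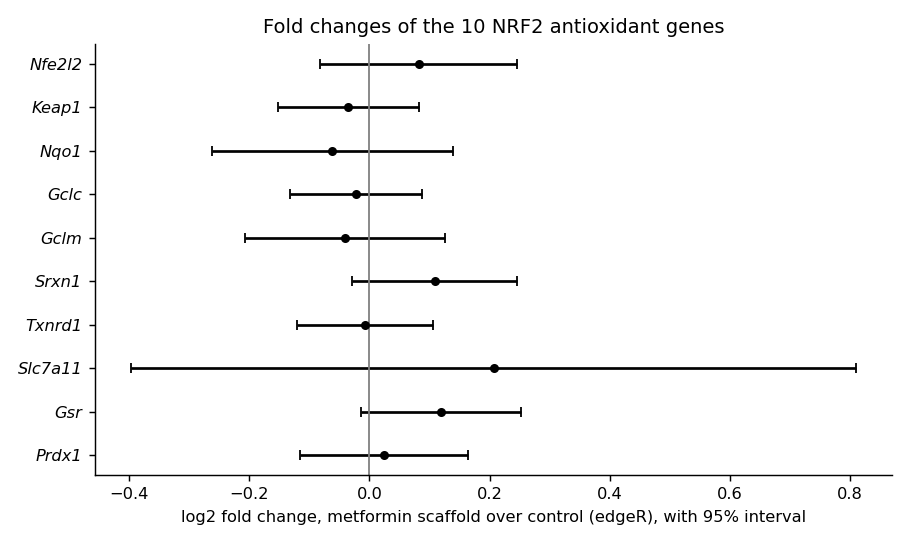
Log2 fold change of metformin scaffold over control for each of the 10 genes (points) with its 95% interval from the edgeR fit (bars); 3 libraries per group. All 10 intervals include 0, and that of Slc7a11, from -0.40 to 0.81, is the widest.

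A p above the threshold does not show that 2 groups are alike, so the intervals matter more here. For the 9 genes other than Slc7a11, the fitted folds lay between 0.958 and 1.09. Their 95% intervals, taken gene by gene and not adjusted over the 10, reached no lower than 0.834-fold, for Nqo1, and no higher than 1.19-fold, for Gsr. Changes beyond those bounds thus lay outside the interval of every gene but Slc7a11. For Slc7a11 the interval ran from 0.760-fold to 1.75-fold, so a change within those bounds could not be told from none in these libraries.

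**Figure D2:**
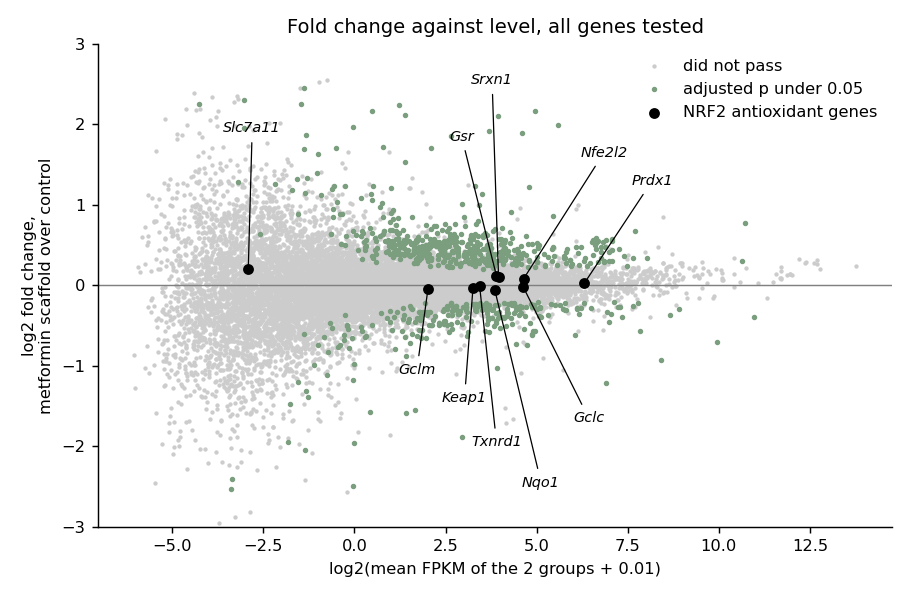
Log2 fold change of metformin scaffold over control (vertical axis, edgeR) against the log2 of the mean FPKM of both groups plus 0.01 (horizontal axis) for the 17356 tested genes within 3 log2 units of 0; 19 lie outside. The 10 genes (black) lie close to 0 among genes that did not pass (grey), while genes with an adjusted p under 0.05 (green) lie above and below them at the same levels.

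The regulators come first. Nfe2l2 (ENSMUSG00000015839, chromosome 2, 75675513 to 75704641, minus strand) encodes NRF2 itself. It stood at 22.4, 26.0 and 27.7 FPKM in scaffold libraries 1 to 3, against 23.9, 25.05 and 24.8 FPKM in control libraries 1 to 3. The scaffold libraries lay on both sides of the control libraries and were more spread, with a coefficient of variation of 10.7% in scaffold and 2.36% in control. Its log2 fold change was 0.08 ± 0.07 (SE; edgeR adjusted p = 0.625). Leaving out scaffold replicate 1, the lowest of the 6, gave 0.17 (edgeR adjusted p = 0.146), and leaving out scaffold replicate 3, the highest, gave 0.0091 (edgeR adjusted p = 0.980).

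Keap1 (ENSMUSG00000003308, chromosome 9, 21229730 to 21239361, minus strand) encodes the sensor that marks NRF2 for destruction. It stood at 9.28, 9.38 and 9.15 FPKM in scaffold libraries, against 10.1, 9.44 and 9.76 FPKM in control libraries. The groups did not overlap on the FPKM scale, all 3 scaffold libraries being lower. In CPM, counts scaled to library size and TMM factors as the test uses them, they did overlap, at 49.3, 49.6 and 49.1 CPM in scaffold against 51.8, 49.1 and 50.8 CPM in control. Between the groups the log2 fold change was -0.04 ± 0.05 (SE; edgeR adjusted p = 0.794). The share of all genes whose groups do not overlap on the FPKM scale was not computed. An antisense gene, Gm16754, overlaps Keap1. No source used here says whether counting used strand, so reads of the pair cannot be told apart.

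Glutathione is made by glutamate-cysteine ligase, whose catalytic subunit is encoded by Gclc and whose modifier subunit is encoded by Gclm. Gclc (ENSMUSG00000032350, chromosome 9, 77754535 to 77794485, plus strand) stood at 23.9, 25.5 and 23.5 FPKM in scaffold libraries, against 25.6, 25.0 and 25.4 FPKM in control libraries. Gclm (ENSMUSG00000028124, chromosome 3, 122245557 to 122270732, plus strand) stood at 3.80, 4.06 and 3.91 FPKM in scaffold libraries, against 4.45, 3.74 and 4.26 FPKM in control libraries. In both genes the groups overlapped, and the lowest Gclm value of all was control replicate 2. Log2 fold changes were -0.02 ± 0.05 for Gclc (SE; edgeR adjusted p = 0.871) and -0.04 ± 0.08 for Gclm (SE; edgeR adjusted p = 0.839). The annotation places a processed pseudogene, Gm6061, and an opposite-strand transcript, Gm17494, within Gclm, so its count is uncertain to that extent.

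Gsr (ENSMUSG00000031584, chromosome 8, 33652523 to 33698163, plus strand) encodes glutathione reductase, which returns oxidised glutathione to its reduced form with NADPH. It stood at 16.0, 14.6 and 15.3 FPKM in scaffold libraries, against 15.0, 14.5 and 13.9 FPKM in control libraries. In TMM-scaled CPM the values were 49.9, 45.3 and 48.0 in scaffold and 45.1, 44.3 and 42.4 in control. Gsr was the only one of the 10 genes whose groups did not overlap in CPM, and scaffold replicate 2 cleared control replicate 1 narrowly. Groups that do not overlap in CPM were found for 24% of all genes tested. The log2 fold change, 0.12 ± 0.06 (SE; edgeR adjusted p = 0.336), was the largest among the 9 better-measured genes and did not pass.

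Slc7a11 (ENSMUSG00000027737, chromosome 3, 49892526 to 50443614, minus strand) encodes xCT, the light chain of the cystine/glutamate exchanger that supplies cysteine for glutathione. It was close to the limit of measurement, at 0.0911, 0.144 and 0.154 FPKM in scaffold libraries, against 0.157, 0.104 and 0.0858 FPKM in control libraries. These rest on 104, 157 and 155 estimated counts in scaffold and 154, 115 and 93 in control. Both groups held a low and a high library, and they overlapped over nearly their whole range. Scaffold over control came to 0.21 ± 0.27 on the log2 scale (SE; edgeR adjusted p = 0.757), and this ran from 0.04 to 0.48 as each library was left out in turn. Its annotated span is 551089 bases with 13922 bases of exon sequence in all transcripts together, and 5 other annotated genes lie within it, and its level per length was not computed with other gene models.

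The heavy chain that holds xCT at the membrane is encoded by Slc3a2, which also carries other amino acid transporters. Slc3a2 is outside the 10 genes and was chosen after its values were seen. It stood at 53.8, 58.0 and 54.7 FPKM in scaffold libraries, against 66.3, 65.7 and 64.6 FPKM in control libraries. All 3 scaffold libraries were below all 3 control libraries, and at -0.20 ± 0.05 on the log2 scale (SE) the gene just missed the threshold (edgeR adjusted p = 0.0560). It passed with DESeq2 (adjusted p = 0.00184), with limma on log2(FPKM + 1) (adjusted p = 0.0385) and in 3 further settings of edgeR (adjusted p from 0.0255 to 0.0386). Slc3a2 did not pass in any fit that left out a library, with the replicate block, or with edgeR or limma without a filter.

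Txnrd1 (ENSMUSG00000020250, chromosome 10, 82833951 to 82897712, plus strand) encodes cytosolic thioredoxin reductase, a selenoprotein that keeps thioredoxin reduced. It stood at 11.1, 10.3 and 10.5 FPKM in scaffold libraries, against 11.2, 10.9 and 10.8 FPKM in control libraries. The scaffold values reached from below the control group into its upper part. Its log2 fold change, -0.0076 ± 0.05 (SE; edgeR adjusted p = 0.960), was the smallest of the 10. The annotation places the gene Eid3 within Txnrd1 on the same strand, which leaves the split of reads between them uncertain.

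Prdx1 (ENSMUSG00000028691, chromosome 4, 116685544 to 116700822, plus strand) encodes an abundant peroxiredoxin that reduces hydrogen peroxide with electrons from thioredoxin. It stood at 83.7, 76.0 and 76.2 FPKM in scaffold libraries, against 74.8, 80.9 and 82.7 FPKM in control libraries. In each group replicate 1 stood apart from the other 2 libraries, on the high side in scaffold and on the low side in control. The log2 fold change was 0.02 ± 0.06 (SE; edgeR adjusted p = 0.891), and it turned to -0.01 with scaling by library totals and with limma on FPKM.

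Srxn1 (ENSMUSG00000032802, chromosome 2, 152105516 to 152109322, plus strand) encodes sulfiredoxin, which repairs overoxidised peroxiredoxins. It stood at 15.4, 16.1 and 16.1 FPKM in scaffold libraries, against 15.0, 14.3 and 16.1 FPKM in control libraries. All 3 scaffold libraries were above the control mean, while control replicate 3 was as high as they were. Its log2 fold change was 0.11 ± 0.06 (SE; edgeR adjusted p = 0.403). Coordinates are given as in the authors' table. Of the 10 genes Srxn1 is the only one whose start and end there are not both those of GENCODE M21 (GRCm38), the annotation used for overlapping genes.

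Nqo1 (ENSMUSG00000003849, chromosome 8, 107388225 to 107403206, minus strand) encodes the quinone reductase most often used as a marker of NRF2 activity. It stood at 12.8, 13.7 and 15.3 FPKM in scaffold libraries, against 13.7, 14.9 and 16.3 FPKM in control libraries. The groups overlapped, with the lowest value in scaffold and the highest in control. The log2 fold change was -0.06 ± 0.09 (SE; edgeR adjusted p = 0.787). Among the 9 genes above 1 FPKM it had the largest standard error, and within each group its values varied by 8.77% in scaffold and 8.70% in control (coefficient of variation).

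**Figure D3:**
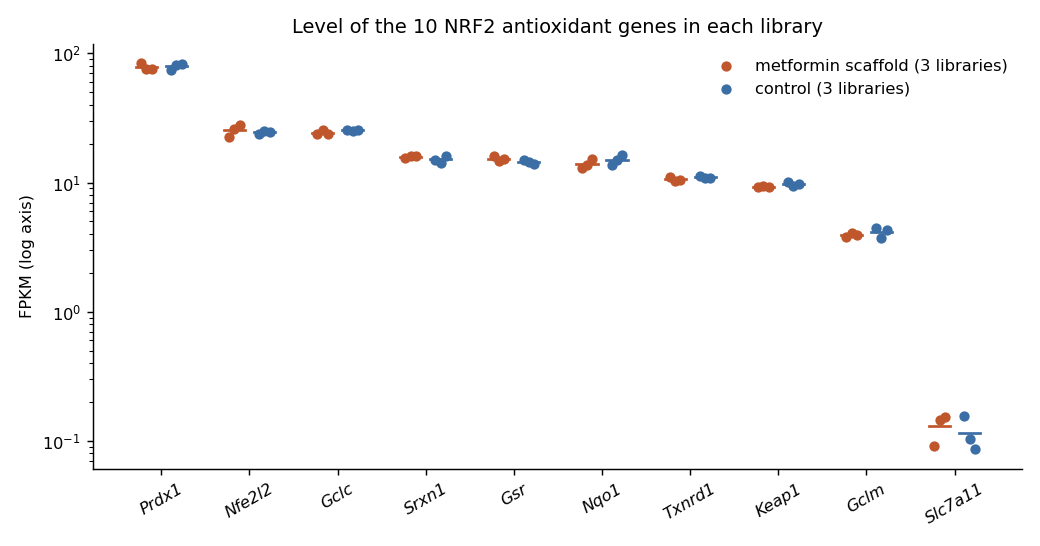
FPKM on a log axis for each of the 10 genes in the 3 metformin scaffold libraries (orange, left) and the 3 control libraries (blue, right), with a line at each group mean; genes are ordered by mean level. The groups lie side by side for every gene, Prdx1 is highest at 74.8 to 83.7 FPKM and Slc7a11 lowest at 0.0858 to 0.157 FPKM.

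Set side by side per gene length, the 10 genes covered a wide span of levels. Prdx1 averaged 78.7 ± 4.40 FPKM in scaffold and 79.5 ± 4.18 FPKM in control libraries (SD, n = 3 each), which placed it above 98.5% of the genes in the table. Nfe2l2 averaged 25.0 FPKM in the 6 libraries and Gclc 24.8 FPKM, and they could not be ordered: Nfe2l2 was the higher in 3 of 6 libraries. Srxn1 (15.5 FPKM), Gsr (14.9 FPKM) and Nqo1 (14.5 FPKM) also overlapped as neighbours. Txnrd1 (10.8 FPKM), Keap1 (9.52 FPKM), Gclm (4.04 FPKM) and Slc7a11 (0.123 FPKM) followed, each above the next in all 6 libraries. Slc7a11 averaged 0.130 ± 0.0337 FPKM in scaffold and 0.115 ± 0.0368 FPKM in control libraries (SD, n = 3 each), and 42.0% of the genes in the table were lower.

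Ratios between partner genes within a library do not depend on how libraries are scaled. The 4 pairs were chosen after the levels were seen and are given as descriptions. The Keap1 to Nfe2l2 ratio of FPKM was 0.415, 0.361 and 0.331 in scaffold libraries and 0.421, 0.377 and 0.394 in control libraries. The ratio of modifier to catalytic subunit, Gclm to Gclc, was 0.159, 0.160 and 0.166 in scaffold and 0.174, 0.149 and 0.168 in control. Both ratios overlapped between the groups, as did that of Srxn1 to Prdx1, at 0.183, 0.212 and 0.212 in scaffold and 0.200, 0.176 and 0.195 in control. The ratio of the reductases Txnrd1 and Gsr was 0.692, 0.703 and 0.690 in scaffold and 0.747, 0.750 and 0.781 in control. It was the only one of the 4 whose groups did not overlap, with every scaffold library lower. The share of other gene pairs whose ratios do not overlap was not computed. Among single genes, 24% of all tested did not overlap in CPM, and Gsr was one of them.

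**Figure D4:**
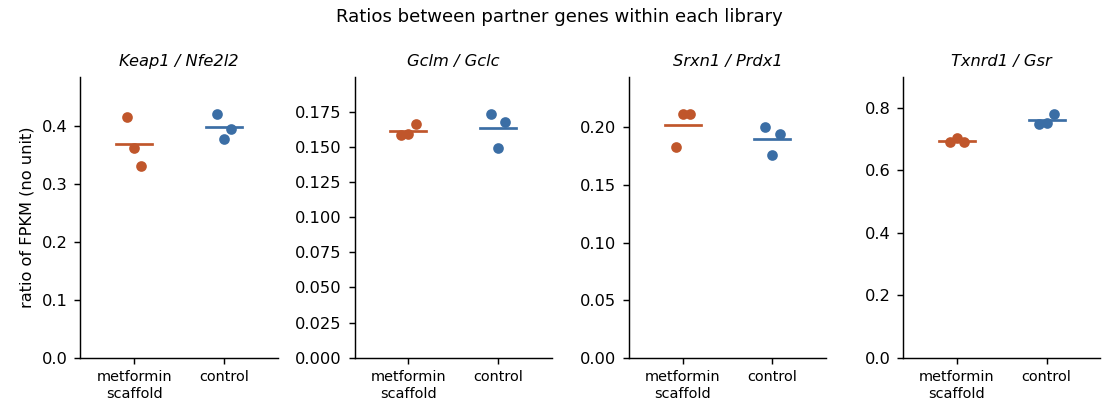
Ratio of FPKM between partner genes in each library (points) with group means (lines), metformin scaffold left and control right; each axis starts at 0. The scaffold libraries sit below the control libraries for Txnrd1 over Gsr, at 0.690 to 0.703 against 0.747 to 0.781, and the groups overlap in the other 3 panels.

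The rest of the pathway was examined through 7 lists of 86 further genes: NRF2 regulators, glutathione, thioredoxin and peroxiredoxin, NADPH supply, haem and iron, detoxification and efflux, and superoxide and peroxide enzymes. Of these, 85 were tested and Gsta3 did not pass the filter on low counts. With edgeR, 1 gene was higher, 1 was lower and 83 did not pass, a share called of 2.35% beside the 4.31% of all genes. Their median log2 fold change was -0.00068, and 42 of the 85 were above 0. Unadjusted p was under 0.05 for 22 of them (25.9%), against 18.1% of all genes tested. By list these were 5 of 10 for NADPH supply, 5 of 10 for superoxide and peroxide enzymes, 3 of 7 for haem and iron, 4 of 20 for detoxification and efflux, 3 of 14 for glutathione, 1 of 12 for thioredoxin and peroxiredoxin and 1 of 12 for the regulators.

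Idh1, the cytosolic isocitrate dehydrogenase that makes NADPH, was the gene that rose. It stood at 30.4, 29.3 and 31.2 FPKM in scaffold libraries, against 24.7, 26.1 and 24.8 FPKM in control libraries, a fold of 1.23 (log2 fold change 0.30 ± 0.05, SE; edgeR adjusted p = 0.00842). All 3 scaffold libraries were above all 3 control libraries. The call was lost without scaffold replicate 3 (edgeR adjusted p = 0.0618). Of the 10 NADPH supply genes, 8 had log2 fold changes above 0, with a list median of 0.12, and 9 did not pass. G6pdx, the first enzyme of the pentose phosphate route, stood at 27.7, 26.2 and 28.3 FPKM in scaffold and 23.3, 25.4 and 23.8 FPKM in control (log2 fold change 0.22 ± 0.06, SE; edgeR adjusted p = 0.0624); it passed with DESeq2 (adjusted p = 0.0105) and with genes filtered at a mean of 1 FPKM (edgeR adjusted p = 0.0498). Idh2, the mitochondrial counterpart of Idh1, averaged 61.3 ± 1.40 FPKM in scaffold and 63.5 ± 2.15 FPKM in control (SD, n = 3 each), with a log2 fold change of -0.01.

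Aox1, an aldehyde oxidase, was the gene that fell. It stood at 4.63, 4.88 and 4.06 FPKM in scaffold libraries, against 6.81, 6.54 and 6.09 FPKM in control libraries, a fold of 0.718 (log2 fold change -0.48 ± 0.07, SE; edgeR adjusted p = 0.00364). All 3 scaffold libraries were below all 3 control libraries, and the call was kept as each library was left out in turn (adjusted p from 0.00915 to 0.0223). The other 19 tested genes of detoxification and efflux did not pass, and the list had a median log2 fold change of -0.02. The glutathione transferase genes Gstm1 and Gstp1, the highest of them that did not pass, averaged 143.8 ± 11.9 and 135.5 ± 4.48 FPKM in scaffold and 157.1 ± 7.80 and 136.2 ± 4.87 FPKM in control (SD, n = 3 each). In the edgeR fit, scaled by TMM, their log2 fold changes were -0.09 for Gstm1 and 0.03 for Gstp1. The summed liver and kidney markers, which are mostly the kidney transcript Kap, were 2.22 to 5.575 FPKM in scaffold and 11.96 to 13.75 FPKM in control libraries; Alb was at most 0.110 FPKM, and the part of such transcripts in the Aox1 difference was not tested.

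In the other 5 lists 0 genes passed with edgeR. Of 12 regulators, 4 had log2 fold changes above 0, with a median of -0.07. Sqstm1, the autophagy adaptor that competes for KEAP1, averaged 91.9 ± 1.96 FPKM in scaffold and 93.3 ± 4.63 FPKM in control, and Nfe2l1, the NRF2 relative that governs proteasome genes, averaged 42.5 ± 1.55 FPKM in scaffold and 45.8 ± 1.24 FPKM in control (SD, n = 3 each). In the edgeR fit, scaled by TMM, their log2 fold changes were 0.02 for Sqstm1 and -0.07 for Nfe2l1. Maff, a small MAF partner of NRF2 named after its values were seen, stood at 0.703, 0.638 and 0.917 FPKM in scaffold and 0.442, 0.469 and 0.487 FPKM in control (log2 fold change 0.72 ± 0.22, SE; edgeR adjusted p = 0.0983). Of 14 glutathione genes, 5 were above 0, with a median of -0.07; the glutathione peroxidase genes Gpx8 and Gpx1 had log2 fold changes of -0.05 and 0.17.

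Of 12 thioredoxin and peroxiredoxin genes, 6 had log2 fold changes above 0, with a median of -0.03. Txnip, which binds and restrains thioredoxin, stood at 141.8, 133.6 and 134.8 FPKM in scaffold libraries, against 153.8, 160.5 and 163.1 FPKM in control libraries (log2 fold change -0.18 ± 0.06, SE; edgeR adjusted p = 0.102). Its groups did not overlap and it passed with DESeq2 alone of the tools run (adjusted p = 0.00848). Txn1, thioredoxin itself, averaged 93.2 ± 11.6 FPKM in scaffold and 104.7 ± 7.20 FPKM in control (SD, n = 3 each), with overlapping groups.

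Of the 7 haem and iron genes, 6 had log2 fold changes above 0, with a median of 0.22, and 0 passed. Hmox1, haem oxygenase and a common readout of oxidant stress that is also controlled by BACH1, was named after its values were seen. It stood at 40.0, 47.2 and 48.1 FPKM in scaffold libraries, against 34.9, 42.0 and 38.2 FPKM in control libraries (log2 fold change 0.27 ± 0.09, SE; edgeR adjusted p = 0.112). The groups overlapped, scaffold replicate 1 lying below control replicate 2, and the gene passed with DESeq2 (adjusted p = 0.0203), with the replicate block (adjusted p = 0.0409) and without scaffold replicate 1 (adjusted p = 0.0315). Hmox1 did not pass with limma or in the other settings of edgeR. The ferritin chains Fth1 and Ftl1, which store iron, had log2 fold changes of -0.16 ± 0.06 and 0.12 ± 0.07 (SE; edgeR adjusted p = 0.200 and 0.392); both have near-identical processed copies that may share their reads.

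Of the 10 superoxide and peroxide enzymes, 4 had log2 fold changes above 0, with a median of -0.03. Sod1, cytosolic superoxide dismutase, averaged 24.2 ± 0.741 FPKM in scaffold and 23.5 ± 2.87 FPKM in control, and Gpx7, a peroxidase of the endoplasmic reticulum, averaged 28.9 ± 1.76 FPKM in scaffold and 26.2 ± 2.66 FPKM in control (SD, n = 3 each). Gpx3, the secreted glutathione peroxidase, named after its values were seen, stood at 3.06, 2.47 and 2.697 FPKM in scaffold and 3.35, 4.92 and 4.76 FPKM in control (log2 fold change -0.62 ± 0.16, SE; edgeR adjusted p = 0.0558). It passed with DESeq2 (adjusted p = 0.00869), without control replicate 1 (edgeR adjusted p = 0.0118) and in 3 other settings of edgeR (adjusted p from 0.0451 to 0.0483). Gpx3 did not pass with limma or in the remaining settings of edgeR.

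**Figure D5:**
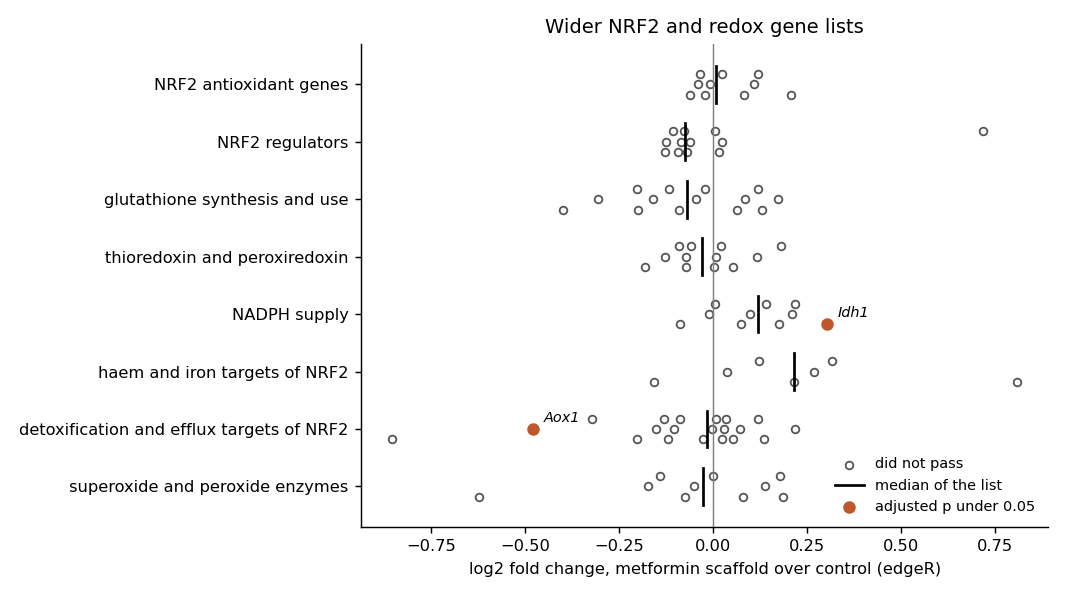
Log2 fold change of metformin scaffold over control for each tested gene (circles) of the 10 NRF2 antioxidant genes and the 7 wider lists, with the list median as a line; filled circles passed at an adjusted p under 0.05. Only Idh1, at 0.30, and Aox1, at -0.48, are filled.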

How the data were processed

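Per the labels, poly(A) RNA was sequenced as paired 150 bp reads. Per the submitters' processing notes, the tools included HISAT2, StringTie, fastp, bcl2fastq 2.20, edgeR and DESeq2, with no roles stated; no source used here names the build. The authors deposited FPKM and estimated counts per gene and library. Low estimated counts pile up at 4, 8 and 12 (31.8% to 33.6% of values from 1 to 12). From this it was inferred, without a further check, that about 4 counts stand for 1 read pair. Of the gene identifiers, 99.7% were in GENCODE M21 (GRCm38), 90.6% of them with the same start and end.

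Estimated counts were rounded and tested with edgeR 4.0.16 in R 4.3.3 (filterByExpr, TMM, quasi-likelihood test, two-sided, Benjamini-Hochberg over 17375 genes, threshold 0.05), after a check on simulated counts. That check had to recover only its largest planted changes, so it does not speak to changes as small as those fitted for most of the 10 members. The standard error is the log2 fold change over the square root of F. Intervals use the fit's t distribution. DESeq2 1.42.0 and limma 3.58.1 were alternatives. The members and lists were chosen with earlier results of these data known. Named genes are the 10 members and, from each list, every gene that passed and the 2 highest that did not; others are marked. Replicates differed beyond sampling noise (chi-square per degree of freedom at least 3.78 on counts divided by 4). Same-numbered libraries did not deviate together (r from -0.05 to 0.04).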

Additional observations from a re-analysis of the deposited data

How the results depend on the processing

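The count of 0 members higher and 0 lower held under all 16 alternatives, with a lowest adjusted p of 0.146; a filter at a mean of 1 FPKM drops Slc7a11. Of 157 member values under alternatives, 147 kept their direction and 10 near 0 changed sign. Scaled by library totals alone, the log2 fold change was -0.0110 for Prdx1, -0.0193 for Sqstm1 and -0.0049 for Gstp1. With limma it was -0.0145 for Prdx1 at a pseudocount of 1, filtered or not, and -0.0147 at 0.1; it was -0.0208 and -0.0210 for Sqstm1, and -0.0082 for Gstp1. Leave-one-out values ran from -0.0235 to 0.0577 for Prdx1, -0.0370 to 0.0222 for Txnrd1, -0.106 to 0.0060 for Gclm, -0.136 to 0.0070 for Nqo1, -0.0295 to 0.0427 for Sqstm1, -0.0036 to 0.0563 for Gstp1, -0.0451 to 0.0097 for Idh2, -0.113 to 0.0133 for Gpx8 and -0.0234 to 0.146 for Sod1. Over all genes tested, the median log2 fold change was -0.0045 in the main fit and -0.0402 with library totals alone. With limma it was -0.0303 at a pseudocount of 1, -0.0354 at 0.1 and -0.0081 without a filter. The cause of the sign changes was not tested.

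The single higher and single lower gene of the wider lists became 6 and 4 with DESeq2, 2 and 3 at a mean FPKM of at least 1, and 0 and 0 with limma without a filter, where Idh1 (adjusted p = 0.0729) and Aox1 (adjusted p = 0.0883) were lost. The lower count was 3 with library totals alone, 3 with counts divided by 4 and 2 with limma at either pseudocount. The higher count was 2 with the replicate block; libraries of the same number share only that number, and the block changed no member's call. Leave-one-out counts ran from 0 to 3 higher (lowest without scaffold replicate 3, highest without scaffold replicate 1, and 2 without control replicate 3) and from 1 to 2 lower (2 without control replicate 1).

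Over all genes, 496 higher and 253 lower became 841 and 478 with DESeq2, 317 and 115 without a filter, and 38 and 29 with limma without one. With limma at pseudocounts of 1 and 0.1 the higher count was 328 and 326, and with library totals alone the lower count was 380, against 429 higher. Leave-one-out counts ran from 234 to 610 higher and from 89 to 358 lower, lowest without scaffold replicate 3; they were 304 and 117 without scaffold replicate 2, 304 and 111 without control replicate 2, and 333 and 127 without control replicate 3.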
